A study of Mus musculus with 24 samples.

Results

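Interferon regulatory factors are the transcription factors through which cells switch on interferon genes and the genes that interferons induce. The 7 members described here, Irf1, Irf2, Irf3, Irf5, Irf7, Irf8 and Irf9, were taken by symbol from a table of 15524 gene rows, and all 7 were present in it. The table covers the lumbar spinal cord of 24 mice, each sampled once. The treated group was 4 male SOD1-G37R mice given a single tail-vein injection of AAV-PHP.eB-MIF, a vector that crosses into the nervous system and carries MIF with an HA tag, after disease onset. The untreated disease group was 10 SOD1-G37R mice, 3 females and 3 males of a mixed-sex experiment and 4 males of a male-only experiment, and the controls were 10 non-transgenic (NT) littermates in the same numbers. SOD1-G37R mice of both groups carry a human SOD1 transgene with the ALS-linked G37R change, flanked by lox sites, and were kept by breeding with C57BL6 mice. They develop a late-onset motor neuron disease, and the untreated mice were sampled at about a year of age with early symptoms. The age and experiment of the AAV-MIF mice are not given in the sources used here. They were set beside the 12 males whose label codes they follow, so a difference of age or experiment and the treatment cannot be told apart.

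The family shares a DNA-binding domain that reads GAAA repeats, and its members act at different steps. Irf3 and Irf7 wait in the cytoplasm until sensors of foreign nucleic acid trigger their phosphorylation, and then switch on the type I interferon genes; Irf5 acts downstream of Toll-like receptors on cytokine genes. Irf9 joins STAT proteins in the complex that carries the signal from type I interferon receptors to DNA, and Irf1 is induced by interferon gamma and drives its secondary targets, with Irf2 as its antagonist on shared sites. Irf8 is a lineage factor of macrophages and microglia, the resident immune cells of the spinal cord, and pairs with Spi1 (PU.1) on myeloid genes.

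On GRCm38 with the GENCODE M21 annotation, the members lie on 5 chromosomes, all as protein-coding genes. Irf8 spans chr8:120736358-120756694, Irf5 chr6:29526625-29541871, Irf9 chr14:55603571-55610030, Irf1 chr11:53770014-53778374, Irf2 chr8:46739732-46847458 and Irf3 chr7:44997648-45002848 on the plus strand, and Irf7 chr7:141262706-141266481 on the minus strand. The promoter windows of all 7, from RefSeq on GRCm38.p6 and reaching 250 bases before and 50 bases after the start, were searched on both strands for 3 motifs of interferon biology. These were the gamma-activated site bound by STAT dimers (TTCNNNGAA), the core of the interferon-stimulated response element bound by the Irf9 complex and by the family itself (GAAA, any 2 bases, GAAA), and the ETS-IRF composite element on which Spi1 and Irf8 sit together (GGAA, any 2 bases, GAAA). Matches were found in the windows of Irf8, Irf1 and Irf2. They are shown as the stretches through which an interferon signal or the family itself could be read at these genes. Matched letters are in capitals. The response element core and the composite element lay on the plus strand of the gene, and the gamma-activated letters read the same on both strands.
Irf8, gamma-activated site, chr8:120736177-120736205, plus strand: caaaagtgatTTCTCGGAAagagagcgct
Irf8, second gamma-activated site, chr8:120736195-120736223, plus strand: aagagagcgcTTCAGAGAAggcggatttg
Irf1, gamma-activated site, chr11:53769914-53769942, plus strand: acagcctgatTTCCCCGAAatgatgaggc
Irf2, gamma-activated site, chr8:46739511-46739539, plus strand: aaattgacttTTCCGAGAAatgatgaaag
Irf2, interferon-stimulated response element core, chr8:46739495-46739523, plus strand: tggggaagtGAAAATGAAAttgacttttc
Irf2, ETS-IRF composite element, chr8:46739495-46739517, plus strand: tggGGAAGTGAAAatgaaattga
The last pair share bases, so they are one stretch read by both patterns. Of 27025 genes with such windows, 9.55% held the gamma-activated letters, 3.99% the response element core and 3.16% the composite letters. No match lay in the windows of Irf3, Irf5, Irf7 and Irf9, which says only that these letters are not in these windows.

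Each mouse has 1 value per gene, on a log2 scale after the authors' normalization and removal of the difference between experiments. The medians per mouse lay between 4.08 and 4.23, and no mice held identical values. The study's methods give an average read number over all samples, but the depth of each mouse is not given in the sources used here. Values are not per transcript length, so levels are compared between mice and never between genes. Every difference below is a difference of these log2 values, and calls were made in limma at an adjusted p under 0.05 (Benjamini-Hochberg over all 15524 rows). The p-values measure the spread between mice.

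In untreated SOD1-G37R mice, 4 of the 7 members were higher than in NT mice and none was lower. Irf8 rose most, followed by Irf5, Irf9 and Irf1, while Irf2, Irf3 and Irf7 did not pass the test. Of all rows, 14.8% were called higher and 11.8% lower in this comparison. That balance depends on the scaling, with 2290 rows higher and 1830 lower as deposited but 1645 higher and 2945 lower once each mouse was centred on its median, where again 4 members were higher and none lower. The SOD1-G37R and NT mice did not overlap at all in Irf8 and Irf5, 2 of the 7 members, against 3.23% of all rows with every SOD1-G37R mouse above every NT mouse.

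**Figure D1:**
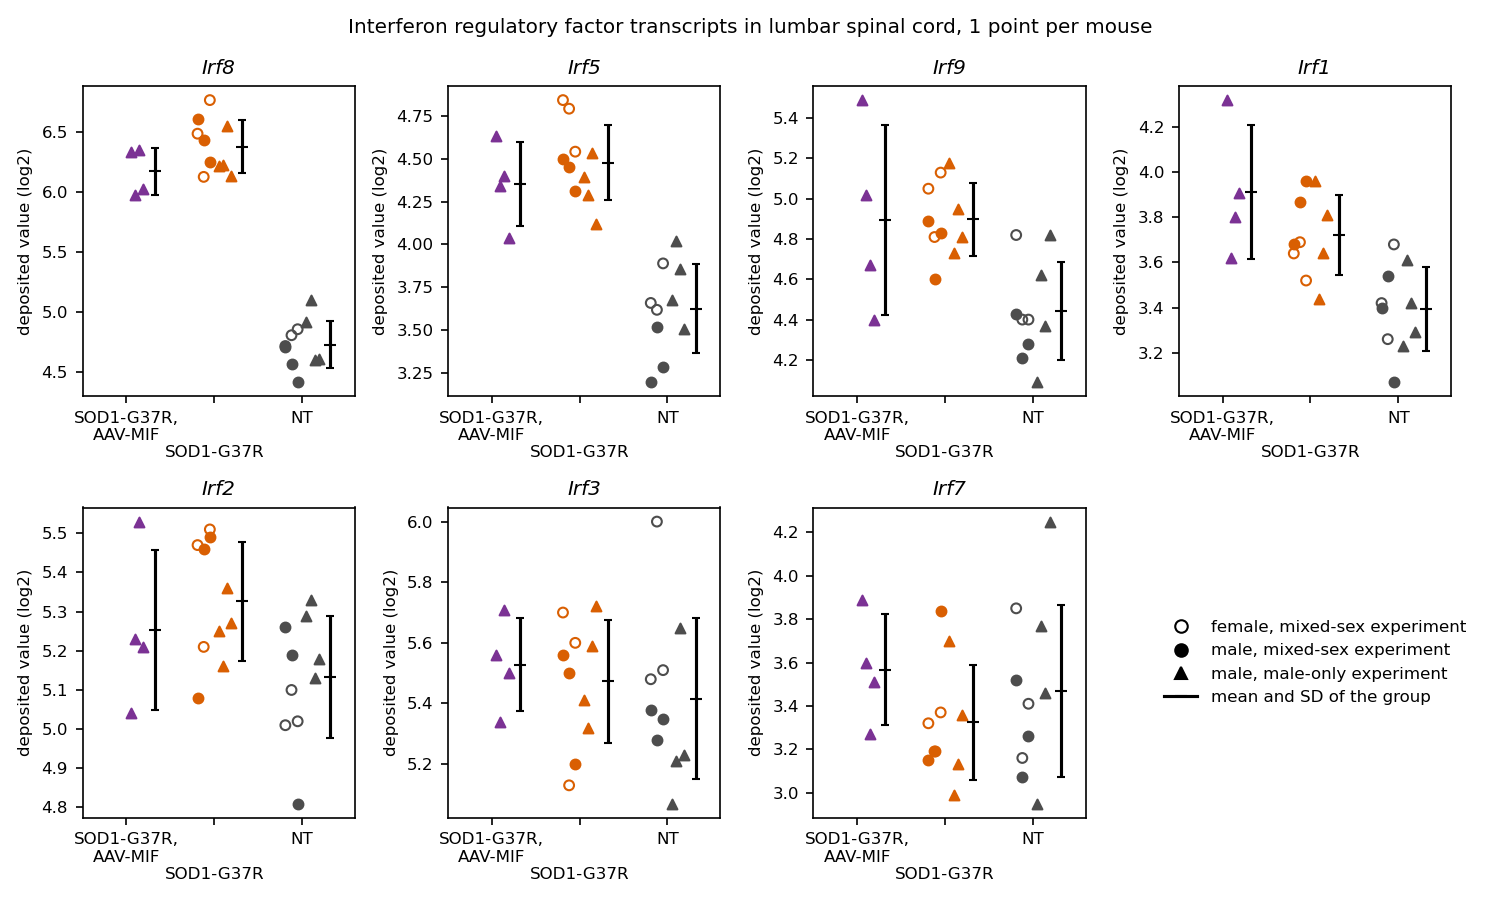
Deposited log2 value of each of the 7 members (vertical axes, own scale per gene) in every mouse of the AAV-MIF SOD1-G37R (n = 4), untreated SOD1-G37R (n = 10) and NT (n = 10) groups, with the mean and SD of the group as a bar. In Irf8 and Irf5 every untreated SOD1-G37R mouse lies above every NT mouse, and in Irf7 the groups run through each other.

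Irf8 reached 6.13 at the lowest, 6.34 at the median and 6.77 at the highest in the 10 SOD1-G37R mice, against 4.42, 4.72 and 5.10 in the 10 NT mice. The gap between the highest NT mouse and the lowest SOD1-G37R mouse was larger than the whole range within either genotype. The difference was 1.65 (SE 0.0910, limma adjusted p = 2.8e-12), which ranked 16 among all rows by p. The exact permutation test over mice within experiment gave p = 3.1e-05, the smallest its 64680 arrangements allow. Spi1, the partner of Irf8 on myeloid genes, ran from 5.62 over a median of 5.87 to 6.37 in SOD1-G37R mice, against 4.43, 4.74 and 4.98 in NT mice. It did not overlap between genotypes either, with a difference of 1.25 (limma adjusted p = 1.43e-09). Irf8 is annotated inside Gm20388, a longer gene on the same strand that had no row among those tested.

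Irf5 lay between 4.12 and 4.84 with a median of 4.47 in SOD1-G37R mice, against 3.20 to 4.02 with a median of 3.64 in NT mice. The groups were separated by a narrow margin, with the lowest SOD1-G37R mouse and the highest NT mouse both from the male-only experiment. The difference was 0.85 (SE 0.103, limma adjusted p = 8.46e-07, exact permutation p = 3.1e-05). The end of Irf5 overlaps the end of Tnpo3 on the opposite strand by 1045 bases, and whether the counting used strand is not given in the sources used here. Tnpo3, a nuclear import receptor, differed by -0.13 (limma adjusted p = 0.387).

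Irf9 ran from 4.60 over a median of 4.86 to 5.18 in SOD1-G37R mice, against 4.09, 4.40 and 4.82 in NT mice. Most SOD1-G37R mice lay above most NT mice, but 3 NT mice, at 4.82, 4.82 and 4.62, reached into the SOD1-G37R range. The difference was 0.45 (SE 0.0931, limma adjusted p = 0.000649, exact permutation p = 0.00046). Stat2, a partner of Irf9 in the type I interferon complex, differed by -0.10 and did not pass the test (limma adjusted p = 0.46). The first 123 bases of Irf9 overlap Rnf31 on the same strand, which differed by -0.06 (limma adjusted p = 0.731).

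Irf1 lay between 3.44 and 3.96 with a median of 3.68 in SOD1-G37R mice, against 3.07 to 3.68 with a median of 3.41 in NT mice. The upper part of the NT range and the lower part of the SOD1-G37R range covered the same values. The difference was 0.33 (SE 0.0819, limma adjusted p = 0.00373, exact permutation p = 0.0012). Its antagonist Irf2 ran from 5.08 over a median of 5.32 to 5.51 in SOD1-G37R mice, against 4.81, 5.16 and 5.33 in NT mice. Here the difference was 0.19 with a 95% interval of 0.04 to 0.34, just short of the threshold (limma adjusted p = 0.0513). It was called without the experiment term (limma adjusted p = 0.0437) and in the mixed-sex experiment alone (0.31, adjusted p = 0.0312). It was not called when median centred (0.13, limma adjusted p = 0.188), quantile normalized (0.14, adjusted p = 0.146) or fitted with a trend (adjusted p = 0.0796).

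Irf3, which is present in most cell types and is switched on by phosphorylation, ran from 5.13 over a median of 5.53 to 5.72 in SOD1-G37R mice, against 5.07, 5.37 and 6.0 in NT mice. The highest and the lowest of these 20 mice were both NT. The difference was 0.06, with a 95% interval of -0.15 to 0.26 (limma adjusted p = 0.746). Irf7, which is itself an interferon-induced gene in many cells, lay between 2.99 and 3.84 with a median of 3.26 in SOD1-G37R mice, against 2.95 to 4.25 with a median of 3.43 in NT mice. Its difference was -0.15 with an interval of -0.43 to 0.14 (limma adjusted p = 0.488), so a rise of the size seen in Irf8, Irf5 or Irf9 lies outside the interval. Neighbours on the opposite strand overlap the start of Irf3 (Bcl2l12, 1065 bases, difference 0.21, limma adjusted p = 0.0311) and the end of Irf7 (Phrf1, 45 bases, difference -0.05, adjusted p = 0.565).

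The genotype difference was then set side by side within each sex and experiment. For Irf8 it was 1.66 in the females and 1.86 in the males of the mixed-sex experiment and 1.48 in the males of the male-only experiment, and in none of the 3 did the genotypes overlap. Irf9 gave 0.46, 0.46 and 0.44, the most even values among the members called. Irf5 gave 1.0, 1.08 and 0.57, again with no overlap in any of them. Its males differed between the experiments by 0.52 (SE 0.189, limma unadjusted p = 0.0144, adjusted p = 0.999), which did not pass the test.

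Irf1 gave 0.17 in the females, 0.50 in the males of the mixed-sex experiment and 0.32 in the male-only experiment. The male minus female difference of 0.33 had an unadjusted limma p of 0.121 (adjusted p = 0.993). Irf2 gave 0.35, 0.26 and 0.03, Irf3 -0.19, 0.08 and 0.22, and Irf7 -0.18, 0.11 and -0.31, so the last pair took both signs. No member passed the test of experiment by genotype in the 14 untreated males or of sex by genotype in the 12 mice of the mixed-sex experiment. Over all rows limma called 0 in either test, with 3.57% and 4.34% of rows at an unadjusted p under 0.05. Genotypes did not overlap for 3 members in the females (Irf8, Irf5 and Irf2, against 17.1% of all rows higher with no overlap) and for 4 in the males of that experiment (Irf8, Irf5, Irf9 and Irf1, against 14.8%). In the male-only experiment only Irf8 and Irf5 did so (6.56% of all rows). There Irf1 and Irf9 lost their calls, at adjusted p = 0.238 and 0.173 with 8 mice in the limma fit.

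**Figure D2:**
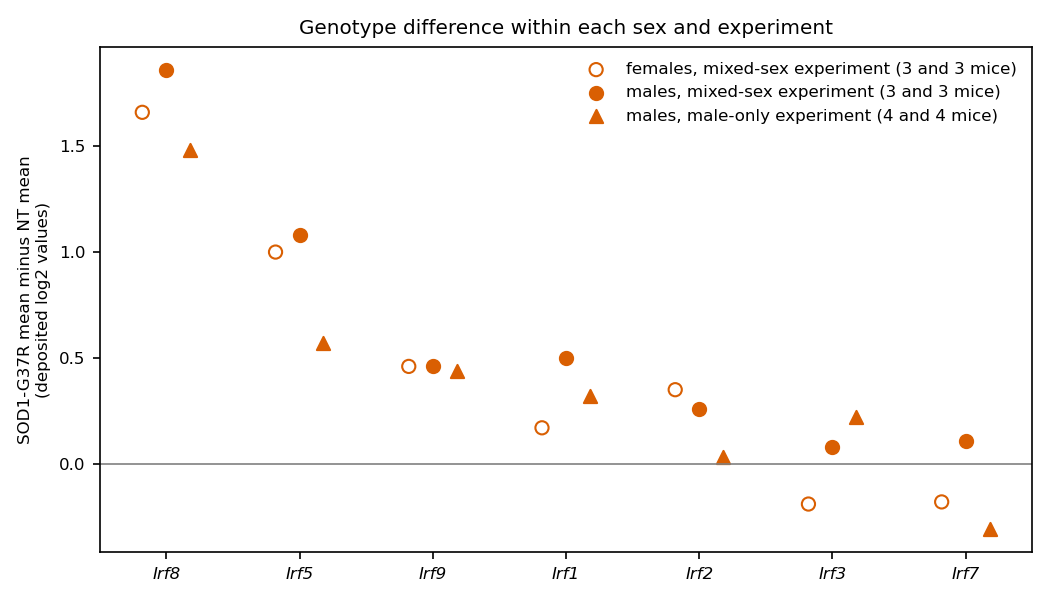
Mean of untreated SOD1-G37R mice minus mean of NT mice (vertical axis, deposited log2 values) for each member in females and males of the mixed-sex experiment (3 and 3 mice each) and males of the male-only experiment (4 and 4 mice). Irf8 stays between 1.48 and 1.86 and Irf9 between 0.44 and 0.46, while Irf3 and Irf7 fall on both sides of 0.

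The AAV-MIF mice were set beside untreated mice only, and no group was given a vector without MIF. The injection, the vector and MIF itself therefore cannot be told apart here. None of the 7 members was called between AAV-MIF and untreated SOD1-G37R mice in either direction. Nor did any member separate these groups without overlap, against 0.96% of all rows with every AAV-MIF mouse higher and 0.837% with every one lower. In this comparison limma called 0.00644% of all rows higher, a single row, and 0.0% lower, and 510 rows, 3.29%, had an unadjusted p under 0.05. Mif itself, the gene of the vector, stood at 10.02, 9.73, 9.77 and 9.57 in the AAV-MIF mice, against 9.72, 9.53, 9.78 and 9.71 in the untreated males of the male-only experiment. The difference was 0.09, with a 95% interval of -0.16 to 0.33 (limma adjusted p = 1.0). The reads come from transcript 3′ ends, and which 3′ end the vector's transcript carries is not given in the sources used here, so these values do not check delivery.

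Irf8 stood at 6.34, 5.98, 6.35 and 6.03 in the AAV-MIF mice, against 6.22, 6.23, 6.55 and 6.14 in the untreated SOD1-G37R males and 4.92, 5.10, 4.60 and 4.61 in the NT males of the male-only experiment. The AAV-MIF values overlapped those of untreated SOD1-G37R males and cleared those of NT males. AAV-MIF minus untreated was -0.11, with a 95% interval of -0.41 to 0.18, and AAV-MIF minus NT was 1.37 (SE 0.139, limma adjusted p = 4.16e-05). Spi1 gave 0.00 (interval -0.34 to 0.35) and 1.21 (limma adjusted p = 0.00037) in the same comparisons.

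Irf5 stood at 4.63, 4.34, 4.40 and 4.04 in AAV-MIF mice, against 4.39, 4.29, 4.53 and 4.12 in untreated SOD1-G37R males and 3.68, 4.02, 3.86 and 3.51 in NT males. The lowest AAV-MIF mouse lay just above the highest NT mouse. AAV-MIF minus untreated was 0.02 (interval -0.28 to 0.32) and AAV-MIF minus NT was 0.58 (SE 0.142, limma adjusted p = 0.0312). That call was lost when the mice were centred on their medians (0.53, adjusted p = 0.0773) or quantile normalized (0.53, adjusted p = 0.0683). It was also lost without AAV-MIF mouse 1, 2 or 3 or NT mouse 1, 3 or 4, at adjusted p of 0.102, 0.0612, 0.104, 0.0978, 0.0524 and 0.122.

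Irf9 was the most variable member among the AAV-MIF mice, at 5.49, 5.02, 4.67 and 4.40 (SD 0.470), against 5.18, 4.73, 4.95 and 4.81 (SD 0.195) in untreated SOD1-G37R males and 4.09, 4.62, 4.37 and 4.82 (SD 0.316) in NT males. AAV-MIF mice supplied both the highest and the lowest Irf9 value among the 14 SOD1-G37R mice, and the difference from untreated males was -0.02 (interval -0.45 to 0.41). Irf1 stood at 4.32, 3.62, 3.80 and 3.91 in AAV-MIF mice, against 3.96, 3.44, 3.64 and 3.81 in untreated SOD1-G37R males and 3.23, 3.61, 3.42 and 3.29 in NT males. The first AAV-MIF mouse had the highest Irf1 of all 24 and also the highest Irf9. Irf1 differed by 0.20 from untreated males (interval -0.12 to 0.52; 0.07 without that mouse) and by 0.52 from NT males, where it did not overlap but was not called (limma adjusted p = 0.0749).

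Irf7 stood at 3.89, 3.60, 3.27 and 3.51 in AAV-MIF mice, against 3.70, 2.99, 3.13 and 3.36 in untreated SOD1-G37R males and 2.95, 3.77, 3.46 and 4.25 in NT males. Its difference from untreated males was the largest of the family at 0.27, with the widest interval, -0.20 to 0.75, and it ran from 0.17 without AAV-MIF mouse 1, or without untreated mouse 2, to 0.41 without untreated mouse 1. Irf2 stood at 5.04, 5.23, 5.53 and 5.21 in AAV-MIF mice, against 5.25, 5.16, 5.36 and 5.27 in untreated males and 5.29, 5.33, 5.13 and 5.18 in NT males. The 3 groups covered much the same range. Irf3 stood at 5.56, 5.34, 5.71 and 5.50 in AAV-MIF mice, against 5.41, 5.32, 5.59 and 5.72 in untreated males and 5.07, 5.21, 5.65 and 5.23 in NT males. For both, AAV-MIF minus untreated lay near 0, at -0.01 for Irf2 (interval -0.24 to 0.23) and 0.02 for Irf3 (interval -0.27 to 0.30).

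Against NT males, 2 of the 7 members, Irf8 and Irf5, were called higher in AAV-MIF mice and none was called lower, beside 2.89% of all rows higher and 0.225% lower. Over all rows that is 448 higher and 35 lower as deposited, against 336 and 74 with median centring. In 3 members, Irf8, Irf5 and Irf1, every AAV-MIF mouse lay above every NT male, against 6.48% of all rows, and in none did every AAV-MIF mouse lie below (3.17% of all rows). Exact permutation p-values between AAV-MIF and untreated mice ran from 0.23 to 0.97, where the smallest possible with 4 against 4 mice is 0.029. The AAV-MIF comparisons and the genotype comparison share mice, so their values are given side by side only.

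**Figure D3:**
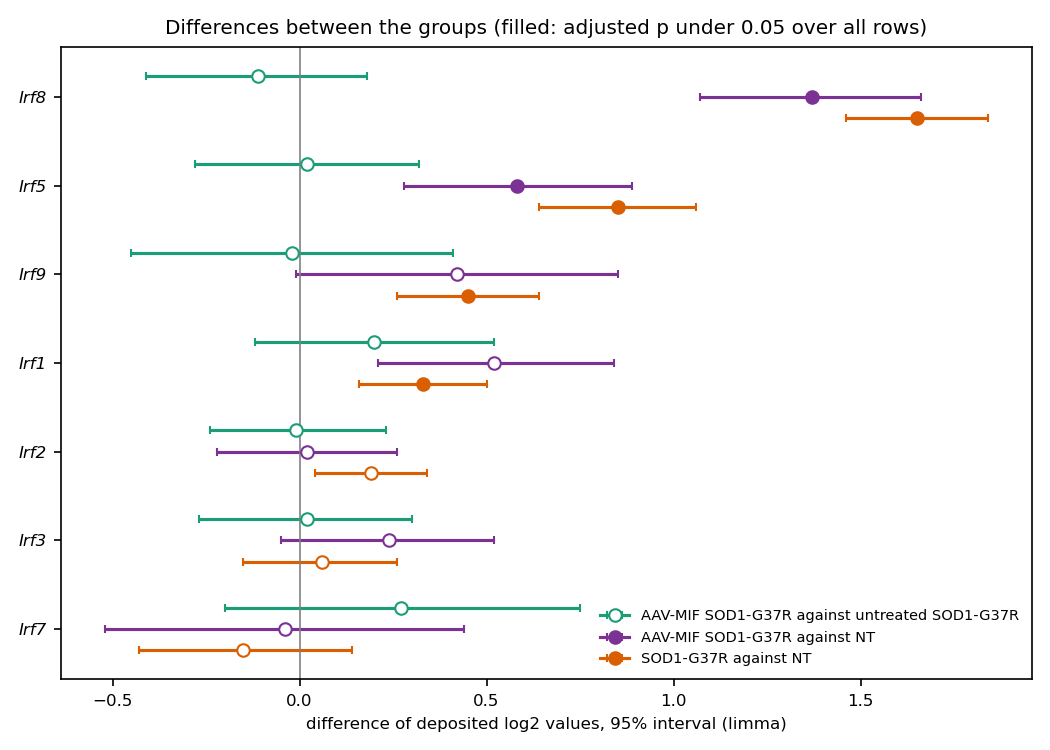
Difference of deposited log2 values with its 95% interval (horizontal axis, limma) for each member in the 3 comparisons, AAV-MIF against untreated SOD1-G37R males, AAV-MIF against NT males, and SOD1-G37R against NT in 20 untreated mice; filled points have an adjusted p under 0.05. All intervals of AAV-MIF against untreated mice include 0, and Irf8 and Irf5 are filled in the other comparisons.

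The rest of the pathway was read from lists of genes, upstream to downstream, for SOD1-G37R against NT mice. None of the 10 interferon genes of the list had a row among those tested. Of the 6 receptor chains, 3 rose and 3 did not pass: Ifnar2, a type I receptor chain, differed by 0.76 (limma adjusted p = 2e-06), Ifngr1, the ligand-binding chain for interferon gamma, by 0.76 (adjusted p = 2.74e-07), and Il10rb, shared by the interleukin 10 and lambda interferon receptors, by 0.87 (adjusted p = 1.45e-07). Their partner chains Ifnar1, Ifngr2 and Ifnlr1 differed by 0.15, 0.01 and 0.00 and were not called, Ifnlr1 at a low mean value of 0.15 over the mice. The list median was 0.46, against 0.00 over all rows.

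Of the 6 kinases and STAT proteins, 2 rose. Stat3, which serves interleukin 6 type cytokines more than interferons, differed by 0.71 (limma adjusted p = 1.35e-07) and the receptor kinase Tyk2 by 0.27 (adjusted p = 0.0275). Jak1 (0.01), Jak2 (0.14) and Stat2 (-0.10) were not called. Of 10 measured sensors, 4 rose and 6 did not pass, led by Tlr2, a receptor for bacterial lipoproteins, at 1.27 (adjusted p = 2.68e-10), then Tlr13, a sensor of bacterial ribosomal RNA, at 0.42, and the DNA sensors Aim2 and Ifi204 at 0.38 and 0.36. The receptors for viral RNA, Ddx58 and Ifih1, differed by 0.15 and 0.21 and were not called (both chosen after their values were seen).

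Of 17 adaptors and kinases that activate the factors, 10 rose, 2 fell and 5 did not pass. Slc15a3, an endolysosomal transporter of bacterial peptides, differed by 1.56 (limma adjusted p = 1.74e-09) and Unc93b1, which carries Toll-like receptors to endosomes, by 1.22 (adjusted p = 1.82e-08). Myd88, the adaptor of most Toll-like receptors, differed by 0.58 and its kinase Irak1 by 0.37. Adaptors and kinases on the route to Irf3 went both ways: Ticam1 (0.40), Tmem173 (0.33), Mavs (0.25) and Ikbke (0.15) were called higher, Traf3 (-0.32) and Azi2 (-0.26) lower, and Tbk1, the kinase of Irf3, differed by -0.16 without a call (adjusted p = 0.0755). These genes were named after their values were seen. Of 11 measured inhibitors, 5 rose and 1 fell. Ptpn6, a phosphatase of blood and immune cells, differed by 1.59, the feedback inhibitor Socs3 by 1.32 and the phosphatase Ptpn1 by 0.48, while the RNA-editing enzyme Adar fell by 0.43 (adjusted p = 0.00478). Of 7 measured relatives and partners of the family, 4 rose: Spi1, Irf2bp2 (0.29) and Irf2bpl (0.24), which belong to the family of Irf2-binding proteins, and Batf (0.19), a partner of Irf4 and Irf8 in lymphocytes. The calls of Ikbke and Batf rest on low levels, with mean values of 0.75 and 0.91 over the mice.

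Downstream, the lists were counted by the factor they lie under. Of 15 measured myeloid genes known to be regulated by Irf8, 11 rose, 1 fell (Siglech, -0.25, named after its value was seen) and 3 did not pass, with a median of 0.93. Cd68, a lysosomal protein of phagocytes, differed by 2.89 (limma adjusted p = 2.18e-13), the protease Ctss by 1.64, and Cybb, the catalytic subunit of the phagocyte NADPH oxidase, by 1.44. Of 10 cytokine genes listed as known Irf5 targets only 3 were measured, all chemokines. Ccl3 (1.38) and Ccl4 (1.21) rose, and Ccl5 did not pass (0.11).

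Of 16 measured interferon gamma-induced genes, several of which are reached through Irf1, 8 rose and 8 did not pass, with a median of 0.30. The immunoproteasome subunits Psmb8 and Psmb9 differed by 0.97 and 0.57, the chemokine Cxcl10 by 0.78 and the GTPase Irgm1 by 0.48 (limma adjusted p between 1.62e-07 and 0.000143). Of 24 measured type I interferon-induced genes, 7 rose, none fell and 17 did not pass, with a median of 0.10. Those that rose most were Lgals3bp (1.13), a secreted glycoprotein, Ifitm3 (0.88) and Bst2 (0.77), which block virus entry and release, and Uba7 (0.36), the enzyme that activates Isg15 for attachment to proteins. The other called genes were Parp14 (0.33), Trim25 (0.31) and Parp9 (0.23). Isg15 itself (-0.09), Ifit1 (-0.01), Ifit2 (0.09), Ifit3 (-0.10), Oasl2 (-0.21) and Cmpk2 (-0.14) did not pass (chosen after their values were seen). Of the 24 differences of this list 14 were positive, against 7793 of all 15524 rows. The 14.8% of all rows called higher is the background for each count of genes that rose.

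**Figure D4:**
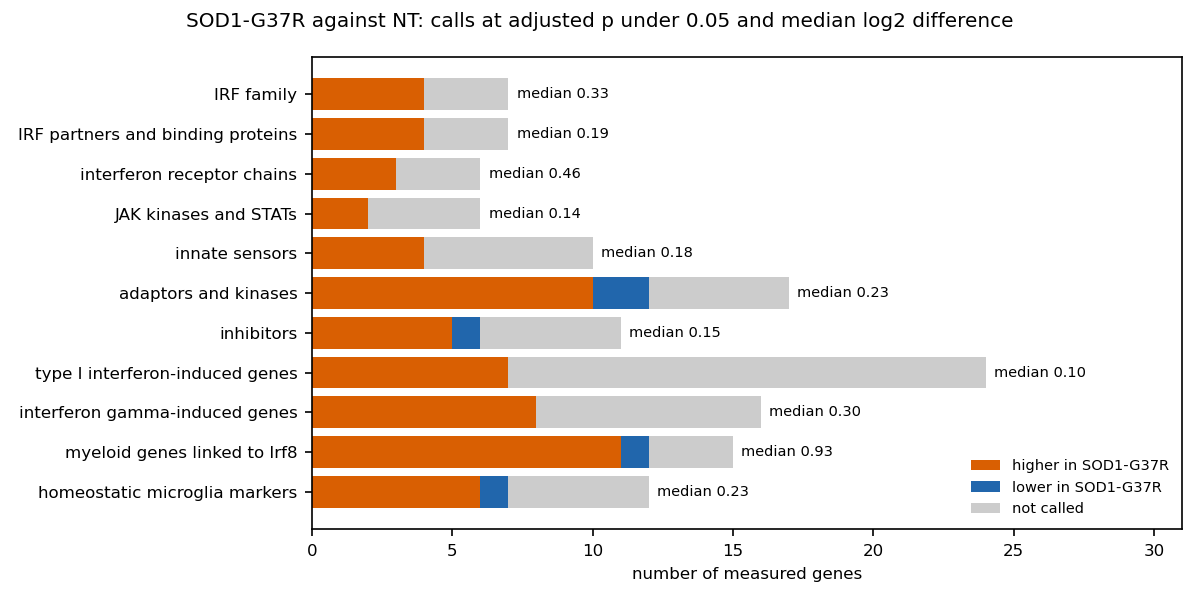
Number of measured genes (horizontal axis) called higher or lower in SOD1-G37R than in NT mice, or not called, in the family and in 10 lists around it, with the median log2 difference of each list. The myeloid list has 11 of 15 genes higher and a median of 0.93, and the type I interferon-induced list 7 of 24 and a median of 0.10.

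Between AAV-MIF and untreated SOD1-G37R mice no gene of any of these lists was called, with list medians from -0.13 to 0.13. Against NT males, 8 of 15 myeloid genes were higher in AAV-MIF mice. So were the 3 measured of the 10 listed Irf5 targets, Ccl5 among them (1.08, limma adjusted p = 0.00578). The same comparison called 4 of 16 interferon gamma-induced genes and 2 of 24 type I interferon-induced genes, which became 2 and 1 with median centring. The background is the 2.89% of all rows called higher as deposited, and 336 of 15524 rows with median centring.

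Cell markers moved with the genotype beside these results. Of 12 homeostatic microglia markers, 6 were higher and 1 lower in SOD1-G37R mice, and the mean value of the list ran from 4.77 to 5.14 in SOD1-G37R mice, against 4.27 to 4.48 in NT mice, with no overlap. In AAV-MIF mice it ran from 4.73 to 4.92. Within it Fcrls rose by 2.71, while the defining markers P2ry12 (0.02) and Tmem119 (-0.13), named after their values were seen, were not called. This list shares Csf1r, Cx3cr1, P2ry12, Sall1 and Siglech with the myeloid list under Irf8, so their counts are not separate results, and Siglech is in the dendritic cell list too. Of the 4 measured genes of border macrophages and monocytes, 2 rose, Ms4a7 (1.92) and Pf4 (0.34), and Cd163 (0.03) and Cbr2 (0.01) did not pass. Their mean ran from 1.61 to 2.09 in SOD1-G37R mice, against 1.3 to 1.5 in NT mice. In whole tissue, more or fewer cells of a type and more or less RNA per cell cannot be told apart, and the part of these markers in the Irf8 and Irf5 results was not tested.

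None of 5 measured T cell genes was called, and Cd3d, Cd3e, Cd3g and Cd4 had no row among those tested. All 5 differences were positive, with a median of 0.13. The list mean lay at 1.18 to 1.44 in SOD1-G37R mice, against 1.0 to 1.26 in NT mice. Mean values were low for Cd8a (-0.18), Cd5 (-0.16), Lck (1.19) and Trbc2 (1.82), with Trac at 3.5, against a median of 4.18 over all rows. At such levels a missing call says little about T cell numbers. By flow cytometry the study reported both kinds, CD4 and CD8, as raised in cords of SOD1-G37R mice. Of 3 dendritic cell genes, 2 were lower, and of 2 B cell genes Ighm was lower (-0.59). Of 10 neuronal genes, 8 were lower in SOD1-G37R mice, with list means of 7.31 to 7.92 against 8.02 to 8.33 in NT mice. Astrocyte markers had 4 of 8 genes higher and 1 lower, led by Gfap at 1.85, oligodendrocyte markers 2 of 8 higher and 1 lower, and none of 8 endothelial and pericyte genes was called (2 were lower with median centring). Red blood cell genes varied most from mouse to mouse, with list means of 4.10 to 8.57 in AAV-MIF mice, 3.59 to 8.24 in untreated SOD1-G37R mice and 3.65 to 6.05 in NT mice, and none of the 4 was called. How far any of these took part in the differences of the 7 members was not tested.

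The 7 members were also compared mouse by mouse after the mean of each of the 7 label groups was removed, which leaves the differences between mice of one group. Of the 21 pairs of members, only Irf7 and Irf9 passed. Their deviations gave Pearson's r = 0.75 (permutation within label groups, p = 0.00021, adjusted p = 0.0044 over the 21 pairs) and Spearman's rho = 0.78 (permutation p = 0.00015, adjusted p = 0.0031) over 24 mice, and r = 0.67 without the NT mice 4 and 1 of the male-only experiment, which lay farthest out in Irf7. The value was 0.68 in the 12 mice of the mixed-sex experiment, 0.78 in the 12 of the male-only experiment, 0.59 in the 10 untreated SOD1-G37R mice and 0.98 in the 10 NT mice. This test was added after the values were seen.

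**Figure D5:**
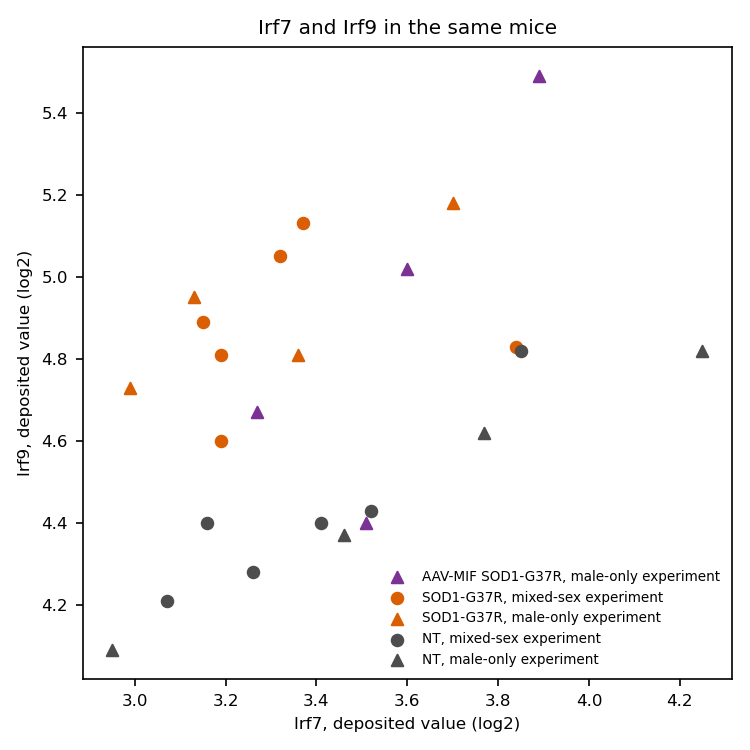
Irf7 (horizontal axis) against Irf9 (vertical axis), both as deposited log2 values, with 1 point per mouse coloured by group and shaped by experiment. Within each group the mice high in Irf7 tend to be high in Irf9, and at a like Irf7 the SOD1-G37R mice mostly stand above the NT mice.

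The highest and the lowest mouse in Irf7 are given as examples. NT mouse 4 of the male-only experiment had the highest Irf7 of all 24 mice (4.25), with Isg15 at 5.21, Oasl2 at 4.89 and Ifit3 at 4.21, and NT mouse 1 of the same experiment the lowest Irf7 (2.95), with Isg15 at 3.94, Oasl2 at 3.66 and Ifit3 at 3.30. The mean of the 24 type I interferon-induced genes was 3.59 in the first of these mice and 3.14 in the second, while the 10 SOD1-G37R mice ran from 3.24 to 3.54 and the AAV-MIF mice from 3.39 to 3.62. Mice between these ends did not all keep the order. AAV-MIF mouse 1, next highest in Irf7 (3.89), had the list mean of 3.62 but Ifit3 at 3.09. The lowest list mean, 3.05, was in NT mouse 3 of the male-only experiment, with Irf7 at 3.46.

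Across the deviations of the 24 mice, 12 of the 24 type I interferon-induced genes had r over 0.5 with Irf7 (median r 0.49), against 2.84% of all rows, and 7 had it with Irf9 (median r 0.36), against 4.29% of all rows. Irf8 had none of them over 0.5 (median r 0.10), but 5 of 15 myeloid genes (median r 0.35, against 3.58% of all rows). Irf9 also followed the 4 red blood cell genes, all with r over 0.5 (median 0.55), whose part in the Irf9 result was not tested. These correlations are over the same 24 mice and share their libraries, and are given as descriptions.

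The genes most like each member over the 24 mice, by Pearson's r of the values, were as follows. For Irf8 they were Lgals3 (0.987), Vim (0.986) and Cd68 (0.986), and for Irf5 Oaf (0.943), Mt1 (0.938) and Cebpd (0.936). These values mostly carry the gap between the genotypes. For Irf9 they were S100a16 (0.836), Klk6 (0.817) and Cmtm7 (0.813), and for Irf1 Rom1 (0.817), Trib1 (0.768) and C1ra (0.763). Irf7 was closest to Oasl2 (0.751), Ifi27 (0.724) and Slc26a10 (0.703), the first pair being interferon-induced genes. For Irf2 they were Lpcat2 (0.774), Ptk2b (0.727) and Colgalt1 (0.725), and for Irf3 Ada (0.716), Amdhd2 (0.699) and Akt1 (0.667).

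With the group means removed, the closest genes changed for most members. Irf8 kept Lgals3 (0.824), the galectin of phagocytes, between Hscb (0.833) and Plekhg2 (0.821), and Irf7 kept Ifi27 (0.775), behind AW011738 (0.809) and level with Gm26633 (0.775). Irf3 kept Ada (0.841), the adenosine deaminase, and Amdhd2 (0.780), followed by Cacng8 (0.753). None of the 3 genes closest to Irf5 by value stayed, and Htr1d (0.832), Pcdhb9 (0.729) and Rnf114 (0.724) took their place. For Irf2 they were Tmem131l (0.776), Nme7 (0.751) and Tlk2 (0.747). The closest to Irf1 and Irf9 were mostly pseudogenes or unnamed loci, Rpl17-ps9 (0.842), A930012L18Rik (0.794) and Grrp1 (0.740) for Irf1 and Gm8213 (0.773), Gm14044 (0.756) and Rps10-ps4 (0.752) for Irf9.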

How the data were processed

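Libraries were made by the 3′ end method MARS-seq with molecular tags. Per the labels and the study's methods, reads passed Trim Galore 0.4.5 with cutadapt 1.15 and STAR 2.5.2a (GRCm38), and RSEM 1.2.28 gave counts per gene, from which the authors took the effect of the experiment with SVA/ComBat. The deposited values per mouse are on a log2 scale, run from -0.79 to 14.76 with 2.22% below 0, and the transform is not given in the sources used here. The authors' own fold changes, p-values and pass flags in that table were not used. Symbols came from the table for 13809 rows and from GENCODE M21 for 1711. Males were assigned to an experiment from the study's methods with their label codes.

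All 15524 rows were fitted with limma 3.58.1 in R 4.3.3, with no filter and no trend: genotype and experiment in the 20 untreated mice, and 3 groups sharing 1 spread in the 12 males of the male-only experiment. The fits were tested on simulated data. Permutations, summaries and plots used Python 3.11.15 (scipy 1.17.1, numpy 2.4.6; pandas 2.3.3; matplotlib 3.10.9). The family, the lists and the tests were chosen with earlier results of these data known. The text names every member in every mouse, up to 4 genes of smallest adjusted p per pathway list, all receptor chains, kinases and STATs, the 3 genes most like each member, and genes at the extremes of marker lists; genes named otherwise were chosen after their values were seen, and some that the rule takes are not reported here. Alternatives changed the scaling, level filter (a mean of at least 2), trend, covariates and mice.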

Additional observations from a re-analysis of the deposited data

How the results depend on the processing

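The depth of each mouse is unknown, so precision rests on the number of mice. Irf8 and Irf5 kept their calls in SOD1-G37R against NT mice under every alternative run, with adjusted p up to 0.000136 and 0.0348. The 4 members called higher became 2 in the male-only experiment alone and 2 in females alone. There Irf1 (0.32 and 0.17) and Irf9 (0.44 and 0.46) were not called. Fewer mice were in those fits, and the rows they called over the whole table are not reported here. Whether the lost calls are particular to Irf1 and Irf9 was not tested. With 1 mouse left out the count ran from 4 to 5, the added member being Irf2, while rows called higher over the whole table ran from 2088 to 2400. In AAV-MIF against NT males, the 2 members called became 1 under median centring and 1 under quantile normalization. They ran from 1 to 2 with 1 mouse left out. Over all rows, 448 were called higher as deposited and 336 with median centring, and the count under quantile normalization is not reported here. In the fit of all 24 mice Irf1 was called against NT males as well (0.53, adjusted p = 0.0093). The cause was not tested. Values near 0 changed sign without a call. These were Irf3 in SOD1-G37R against NT mice (-0.01 median centred, -0.05 in the mixed-sex experiment, -0.19 in females), Irf2 and Irf5 in AAV-MIF against untreated mice (0.00 quantile normalized, and -0.12 with all 24 mice), and Irf2 and Irf7 in AAV-MIF against NT males (-0.04 median centred and -0.02 quantile normalized, and 0.04 with all 24 mice). With 1 mouse left out, AAV-MIF against untreated mice ran from -0.10 to 0.06 for Irf2, -0.05 to 0.08 for Irf3, -0.07 to 0.12 for Irf5 and -0.22 to 0.14 for Irf9, and without a change of sign from 0.07 to 0.30 for Irf1, 0.17 to 0.41 for Irf7 and -0.17 to -0.02 for Irf8. AAV-MIF against NT males ran from -0.07 to 0.09 for Irf2 and -0.26 to 0.18 for Irf7. Over all rows that comparison gave 266 to 509 higher and 10 to 79 lower with 1 mouse left out, and 928 and 371 with all 24 mice. With median centring 2 family partners (4 as deposited), 1 of the kinases and STATs (2 as deposited) and 3 inhibitors (5 as deposited) were called higher, adaptors gave 7 higher and 3 lower (10 and 2 as deposited), type I interferon-induced genes 5 higher and 2 lower (7 and 0), and endothelial genes 2 lower (0).

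Whether replicate numbers pair the mice is not given in the sources used here, and the values did not settle it. The mice were treated as unpaired. Same-numbered SOD1-G37R and NT mice gave correlations from -0.166 to 0.261, AAV-MIF and untreated mice from 0.062 to 0.369, and AAV-MIF and NT mice from -0.256 to 0.068, and not every mouse was closest to its own number. In every same-numbered pair of AAV-MIF and untreated mice, Irf1 and Irf7 were higher in the AAV-MIF mouse (named after their values were seen). The other members took both signs. The share of all rows with every such pair in the same direction was not counted, and neither Irf1 nor Irf7 was called. With the number as a replicate block, 4, 0 and 2 members were called higher in the 3 comparisons, the same counts as without it. In SOD1-G37R against NT mice, 2272 rows over the whole table were called higher with the block and 2290 without it. The single row called over the whole table between AAV-MIF and untreated mice became 0. For AAV-MIF against NT males, the rows called over the whole table with the block are not reported here.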
